A study of Mus musculus with 14 samples.

Results

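Genes that mark neural progenitors and the start of neurogenesis were followed in the embryonic hippocampus of mouse models of Down syndrome. They were chosen by name: Pax6, Sox2, Hes1, Hes5, Nes, Fabp7 and Slc1a3 for radial glia, and Eomes and Neurog2 for cells on the way to becoming neurons. All 9 were found among 17443 named genes in a table of 59796 assembled loci. The RNA-seq series held 14 libraries of hippocampi dissected at embryonic day 16 to 18. A set of 3 came from 189N3 mice, which carry an extra copy of Dyrk1a on a bacterial artificial chromosome, and 3 from their wild-type littermates. A further 4 came from Dp(16)1Yey/+ mice, which carry an extra copy of the chromosome 16 stretch from Lipi to Zbtb21, Dyrk1a included, and 4 from their wild-type littermates. The methods give 3 or 4 embryos per genotype and do not say whether embryos of a genotype shared a litter. Whole hippocampus was measured, so fewer cells of a type and less RNA per cell cannot be told apart.

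Radial glia are the stem cells of the embryonic brain. They divide at the ventricle, and Notch signalling between neighbouring cells holds them in the progenitor state through the repressors Hes1 and Hes5. When Notch signalling drops, the proneural factor Neurog2 switches on Eomes (Tbr2), a factor of intermediate progenitors, and the daughters of these cells become glutamatergic neurons. In the hippocampus the same lineage gives the pyramidal neurons and, later, the granule cells of the dentate gyrus.

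Hes5 marks radial glia and Eomes the intermediate progenitors, and the bases just before their RefSeq start sites (GRCm38.p6, plus strand) are shown for the letters bound by the Notch partner RBPJ and by Hes proteins. The Hes5 stretch, chr4:154960673-154960922, has in capitals the letters GTGGGAA on either strand, the core read by RBPJ, the DNA-binding partner of Notch. The Eomes stretch, chr9:118477939-118478188, has in capitals the N-box CACNAG on either strand, the site preferred by Hes proteins.
Hes5: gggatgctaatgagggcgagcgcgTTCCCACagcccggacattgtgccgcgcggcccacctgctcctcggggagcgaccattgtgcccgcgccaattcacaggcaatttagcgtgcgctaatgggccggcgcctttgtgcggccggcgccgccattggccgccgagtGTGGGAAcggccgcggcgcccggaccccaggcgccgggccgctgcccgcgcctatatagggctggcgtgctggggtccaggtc
Eomes: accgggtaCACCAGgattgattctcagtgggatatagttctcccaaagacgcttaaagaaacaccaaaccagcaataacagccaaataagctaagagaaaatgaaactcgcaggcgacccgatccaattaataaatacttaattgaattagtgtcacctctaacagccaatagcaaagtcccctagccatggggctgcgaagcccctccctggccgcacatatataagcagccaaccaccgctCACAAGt
The Hes5 stretch held GTGGGAA 2 times, 226 and 83 bases before the start site. Of 32851 RefSeq promoters of the same 250 bases, 5.42% held at least 1 such match and 0.161% held 2 or more. Promoters were listed for 8 of the 9 genes, as 9 stretches since Pax6 had 2, and none of the other 8 stretches held GTGGGAA. The Eomes stretch held the N-box 2 times, 242 and 7 bases before the start site, where 36.7% of all promoters held at least 1 and 8.18% held 2 or more. A single match each was found before the second Pax6 start, 136 bases upstream, before Fabp7, also at 136 bases, and before Slc1a3 at 178 bases. Both strands were searched. These matches are descriptions of letters and not measured sites.

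Libraries held between 20809135 and 29098454 fragments, and the values given here are fragments per locus divided by the authors' size factor of each library, called normalised fragments. Hes1 and Hes5, the genes with the fewest fragments of the 9, rested on 98 to 248 and 82 to 256 fragments per library. Dyrk1a was 4688 ± 1042 normalised fragments (SD, n = 3) in 189N3 and 2517 ± 430 (SD, n = 3) in their littermates, without overlap. In Dp(16)1Yey/+ it was 3387 ± 1111 (SD, n = 4), against 2808 ± 424 (SD, n = 4). The library labelled Dp(16)1Yey/+ replicate 1 stood apart: its Dyrk1a value of 2124 lay below the lowest littermate value of 2397, and the median of 85 genes of the triplicated stretch was 0.10 above littermates on the log2 scale, against 0.40 to 0.69 in the other 3 libraries. It is called the library labelled replicate 1 from here on, and differences of the 9 genes and list medians that change sign or move by more than 1.5 times without it are given both ways. The wild-type littermates of Dp(16)1Yey/+ fell into nearly alike pairs, replicates 0 with 1 and 2 with 3. Within these pairs the median squared difference over named loci with a mean of at least 100 was 1.68 and 2.63 times counting noise, against 10.1 to 127 for all other pairs of libraries in a group. All 8 hippocampal markers examined, among them Neurod6, were above 0 in every group. The 9 striatal markers were above 0 in every group too, with summed levels of 2446 to 5076 normalised fragments, and choroid plexus markers ranged from 217 to 14250 between libraries.

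Levels can be compared between genes only per length of exon. On the scale of normalised fragments per kb of merged exon, over all 14 libraries, Fabp7 was the highest at 10070.4 ± 3705 (SD, n = 14). Fabp7 encodes the brain fatty acid binding protein of radial glia. Nes, the intermediate filament nestin, followed at 757 ± 138 per kb, and Slc1a3, the glial glutamate transporter GLAST, at 624 ± 108 per kb. Eomes stood at 451 ± 186 per kb, Neurog2 at 339 ± 129 and Sox2 at 257 ± 64.7. The lowest were Hes5 at 112 ± 34.6 per kb, Pax6 at 93.4 ± 23.3 and Hes1 at 75.3 ± 29.9. Merged exon counts every annotated exon of a gene, 11.7 kb for Pax6 and 8.54 kb for Slc1a3 against 1.36 kb for Hes5. Where transcripts carry only part of that length, the level per kb comes out too low, so the places of Pax6 and Slc1a3 are uncertain. Only Fabp7 was separated from its neighbour, with a lowest library of 5647 per kb against a highest Nes library of 1034. Every other pair of neighbours in this order overlapped in range, although Sox2 lay above Hes5 in 14 of 14 libraries. Hes5 lay above Pax6 in 9 of 14 libraries, the least separated pair.

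**Figure D1:**
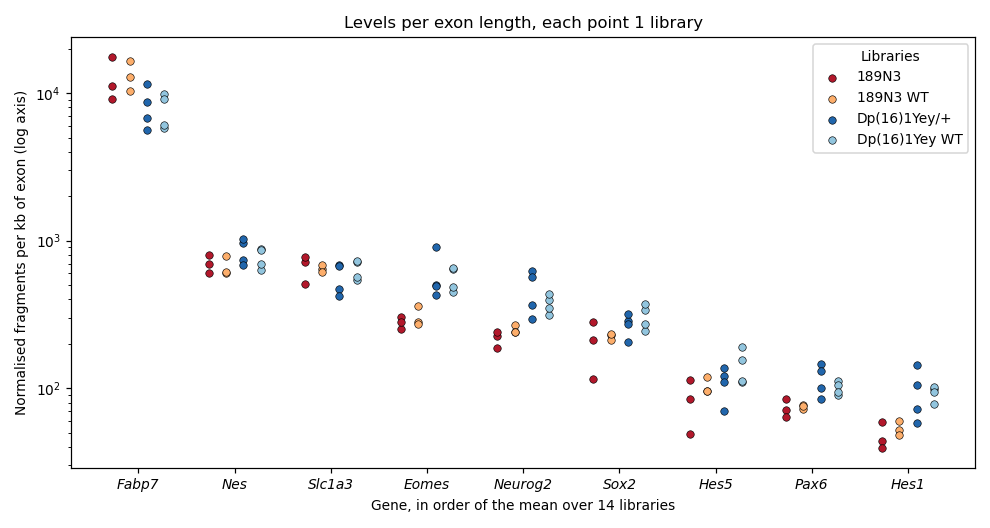
Normalised fragments per kb of merged exon (log axis) for the 9 genes, in order of their mean over 14 libraries; each point is 1 library, coloured by group. Fabp7 stands above all others in every library, and Pax6, Eomes and Neurog2 lie lower in all 6 libraries of the 189N3 line than in all 8 of the Dp(16)1Yey line. The share of all loci separated in this way was not computed; between the wild-type groups alone 25.5% of loci did not overlap.

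Each transgenic group was compared with its own littermates for the 9 genes. None of the 9 genes passed an adjusted p of 0.05 in either model (limma with Benjamini-Hochberg adjustment over all loci tested). In 189N3 the smallest adjusted p among them was 1.00, and 0 of 9 had an unadjusted p under 0.05. Over all 35899 loci tested, 0% passed the adjusted threshold and 1.87% the unadjusted one. In Dp(16)1Yey/+ the smallest adjusted p was 0.909 and again 0 of 9 had an unadjusted p under 0.05, beside 0% and 3.53% of 36024 loci. With 0% past the adjusted threshold, Dyrk1a was not called in either model, although its 189N3 libraries lay above all littermates. A gene without a call may therefore still differ. The libraries of the 2 groups overlapped for all 9 genes in both models. Without overlap in either direction were 4.98% of all loci in 189N3 and 2.45% in Dp(16)1Yey/+. Tests on the recovered fragments with edgeR and with DESeq2 also gave 0 of 9 in each model.

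The intervals limit the size of a change only as far as the libraries are independent. In 189N3 the 9 log2 differences ran from -0.40 to 0.06 with a median of -0.11, beside -0.04 over all loci tested, and 7 of 9 were below 0. That median rested on single libraries: it was -0.04 without 189N3 replicate 1, with 5 of 9 below 0 and a median of -0.05 over all loci, and -0.28 without replicate 2. In Dp(16)1Yey/+ they ran from -0.37 to 0.25 with a median of 0.01, beside 0.03 over all loci, with 5 above 0 and 4 below. The 95% intervals lay between -1 and 1, a range of 2-fold either way, for 8 of 9 genes in 189N3 and for 9 of 9 in Dp(16)1Yey/+. Those of Dp(16)1Yey/+ count the nearly alike littermate libraries as separate and may be too narrow. No interval is given with the pairs averaged or without the library labelled replicate 1. Without the library labelled replicate 1, the median of the 9 became -0.12, with 4 above 0 and 5 below, and 0 of 9 passed either threshold. Leaving out any other library of that line gave medians from -0.15, without Dp(16)1Yey/+ replicate 2, to 0.14, without replicate 3.

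**Figure D2:**
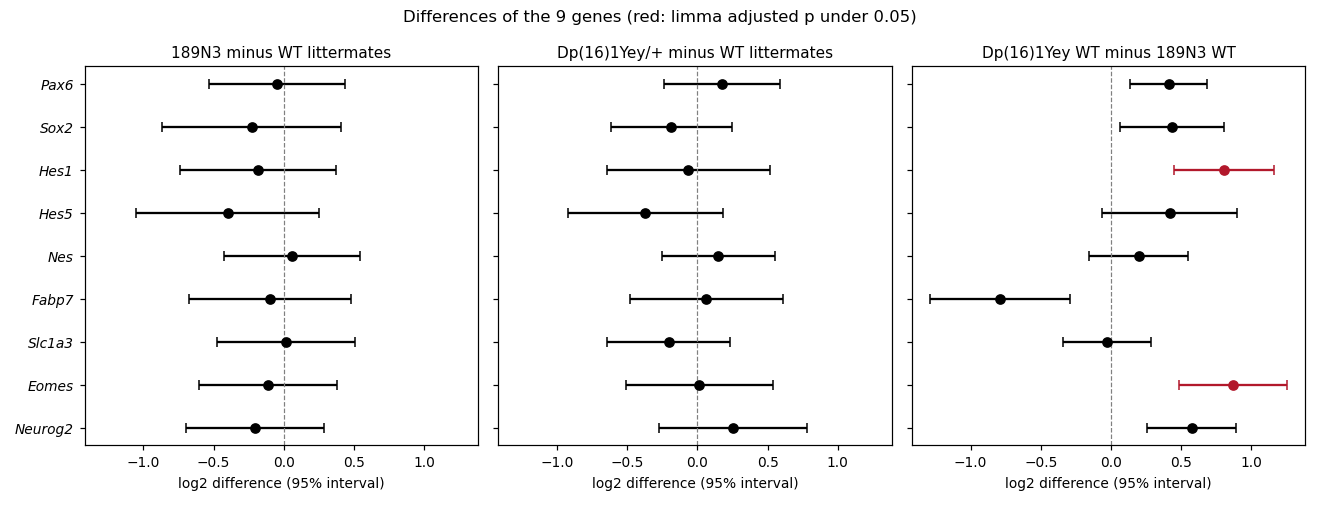
Difference of each gene on the log2(value + 1) scale with its 95% interval, for 189N3 against littermates (3 against 3), Dp(16)1Yey/+ against littermates (4 against 4) and the 2 wild-type groups against each other (4 against 3). All intervals of the first 2 panels include 0; in the third, Hes1 and Eomes are marked as past the adjusted threshold.

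Pax6 is the homeodomain factor that sets the identity of cortical radial glia. Its values were 838, 742 and 986 normalised fragments in 189N3 replicates 0 to 2, and 900.1, 848 and 889 in their littermates. The 189N3 libraries lay on both sides of a narrow littermate range. In Dp(16)1Yey/+ the values were 994, 1695, 1522 and 1179 in replicates 0 to 3, against 1313, 1221, 1057 and 1102 in littermates. The library labelled replicate 1 and replicate 2 were above all littermates and replicate 0 below all. The log2 difference was -0.05 ± 0.23 (SE) in 189N3 and 0.17 ± 0.19 in Dp(16)1Yey/+, and 0.05 without the library labelled replicate 1. Pax6 lies on chromosome 2 at 105668900-105697364 (GRCm38, plus strand) and overlaps the antisense gene Pax6os1. Whether the counting used strand is not given in the sources used here, but the Pax6os1 locus held 24.1 ± 13.8 normalised fragments or fewer on average in any group.

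Sox2 is the SRY-box factor that keeps neural stem cells undifferentiated. In 189N3 its values were 437, 239 and 582, against 471, 437 and 476 in littermates. Replicate 1 was by far the lowest of all 14 libraries, and the 189N3 spread (CV 41.1%) was wider than that of littermates (CV 4.65%). The Dp(16)1Yey/+ values were 587, 654, 559 and 421, against 503, 558, 699 and 769.5 in littermates. The highest values thus belonged to littermate replicates 2 and 3, and the lowest to Dp(16)1Yey/+ replicate 3. The log2 difference was -0.23 ± 0.30 (SE) in 189N3 and -0.19 ± 0.20 in Dp(16)1Yey/+. Sox2 lies within the non-coding gene Sox2ot on the same strand, which is a separate locus here with 956 ± 117 normalised fragments in 189N3 and 951 ± 23.4 in their littermates (SD, n = 3).

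Hes1 and Hes5 are the repressors through which Notch acts. Hes1 stood at 89.7, 79.9 and 119 normalised fragments in 189N3 and at 106, 97.5 and 122 in littermates, which overlap. In Dp(16)1Yey/+ it ranged more widely, at 146, 291, 215 and 118, whereas littermates stayed at 202, 209, 159 and 193. The library labelled replicate 1 and replicate 2 were above every littermate, and replicates 0 and 3 below. The log2 difference of Hes1 was -0.18 ± 0.26 (SE) in 189N3 and -0.06 ± 0.26 in Dp(16)1Yey/+, where it became -0.29 without replicate 1. Although Hes1 lies on chromosome 16 (30064384-30067796, GRCm38), it ends 45.5 Mb before the triplicated stretch.

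Hes5 had the lowest log2 difference of the 9 genes in both models, and neither passed a test. Its values in 189N3 were 116, 66.9 and 155, against 131, 130.0 and 163 in littermates. Of the 3 transgenic libraries, 2 were below all littermates, with replicate 1 the lowest of the series. The difference was -0.40 ± 0.30 (SE; 95% interval -1.05 to 0.25) and the exact two-sided permutation p was 0.40, where 0.10 is the smallest that 3 against 3 allows. Among Dp(16)1Yey/+ libraries the values were 186, 166, 151 and 95.6, against 150.4, 152, 210.5 and 259 in littermates. Only replicate 3 lay below the littermate range, and the 2 highest values were those of littermate replicates 2 and 3. The difference was -0.37 ± 0.25 (SE; 95% interval -0.92 to 0.18), with an exact permutation p of 0.257, where 4 against 4 allows 0.0286. The 189N3 difference rested on replicate 1, without which it was -0.07. Without replicate 2 it was -0.67, with an unadjusted but no adjusted limma p under 0.05. Hes5, on chromosome 4, overlaps Gm20421 on the opposite strand.

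The ratio of Hes1 to Hes5 in normalised fragments lay between 0.748 and 0.808 in the 189N3 littermates and in 189N3 replicates 0 and 2, and reached 1.20 in 189N3 replicate 1. The 4 littermates of Dp(16)1Yey/+ gave 1.34, 1.37, 0.754 and 0.746. The Dp(16)1Yey/+ libraries gave 0.787, 1.76, 1.43 and 1.23, so the highest ratio was that of the library labelled replicate 1.

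Nes showed the narrowest range of the 9 genes, 1.73-fold between its lowest and highest library. The values were 4442, 3845 and 5094 in 189N3 and 5091, 3851 and 3935 in littermates. These 2 groups covered the same range almost exactly. For Dp(16)1Yey/+ they were 4729.7, 6213, 6634 and 4411, against 5646, 5545, 4082 and 4463. As for Pax6 and Hes1, the library labelled replicate 1 and replicate 2 were above every littermate. The log2 difference was 0.06 ± 0.23 (SE) in 189N3 and 0.15 ± 0.18 in Dp(16)1Yey/+, or 0.08 without the library labelled replicate 1.

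Fabp7 ranged 3.12-fold over the series. It stood at 13889, 11404 and 22037 normalised fragments in 189N3 and at 12893, 16024 and 20743 in littermates. The group means of 15777 ± 5562 and 16553 ± 3952 (SD, n = 3) were thus closer together than the libraries within either group. Among Dp(16)1Yey/+ libraries the values were 10798, 14329, 7059 and 8495, against 7246, 7656, 12305 and 11353. The library labelled replicate 1 was above all littermates and replicate 2 below all. The log2 difference was -0.10 ± 0.27 (SE) in 189N3 and 0.06 ± 0.25 in Dp(16)1Yey/+, and without replicate 1 the sign of the latter turned, to -0.12.

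Slc1a3 values were 4316, 6128 and 6570.4 in 189N3 and 5489.9, 5821 and 5244 in littermates, with replicate 0 below and the other 2 transgenic libraries above the littermate range. The Dp(16)1Yey/+ libraries gave 5832, 3988, 5771 and 3594, against 6146, 6253, 4589.7 and 4811. The library labelled replicate 1 and replicate 3 were below all littermates, and none was above. The log2 difference was 0.02 ± 0.23 (SE) in 189N3 and -0.20 ± 0.20 in Dp(16)1Yey/+, or -0.13 without the library labelled replicate 1. Slc1a3 lies on chromosome 15 and overlaps Gm37310 on the same strand.

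Eomes, on chromosome 9, had nearly the same mean in each model and its littermates. The 189N3 values were 1262, 1051 and 1172, against 1496, 1168 and 1124. A single littermate, replicate 0, was above all 189N3 libraries. The Dp(16)1Yey/+ values were 2086, 2049.9, 3771 and 1768, against 2683, 2706, 1876 and 2018. Replicate 2 stood far above the other 7 libraries of the line, and replicate 3 below them. The log2 difference was -0.11 ± 0.23 (SE) in 189N3 and 0.01 ± 0.24 in Dp(16)1Yey/+. Without Dp(16)1Yey/+ replicate 2 the latter was -0.22, and without the library labelled replicate 1 it was 0.07. Gm33460 overlaps Eomes on the opposite strand.

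Neurog2, on chromosome 3, had the highest difference of the 9 in Dp(16)1Yey/+, at 0.25 ± 0.24 (SE; 95% interval -0.27 to 0.78; exact permutation p = 0.40). It rested on values of 658, 1379.9, 1267 and 817, against 879, 962, 699 and 785 in littermates. The library labelled replicate 1 and replicate 2 were above and replicate 0 below all littermates, and without replicate 1 the difference was 0.09. In 189N3 the values were 502, 416 and 533, against 600.4, 532 and 532, and the log2 difference was -0.20 ± 0.23 (SE; exact permutation p = 0.30).

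**Figure D3:**
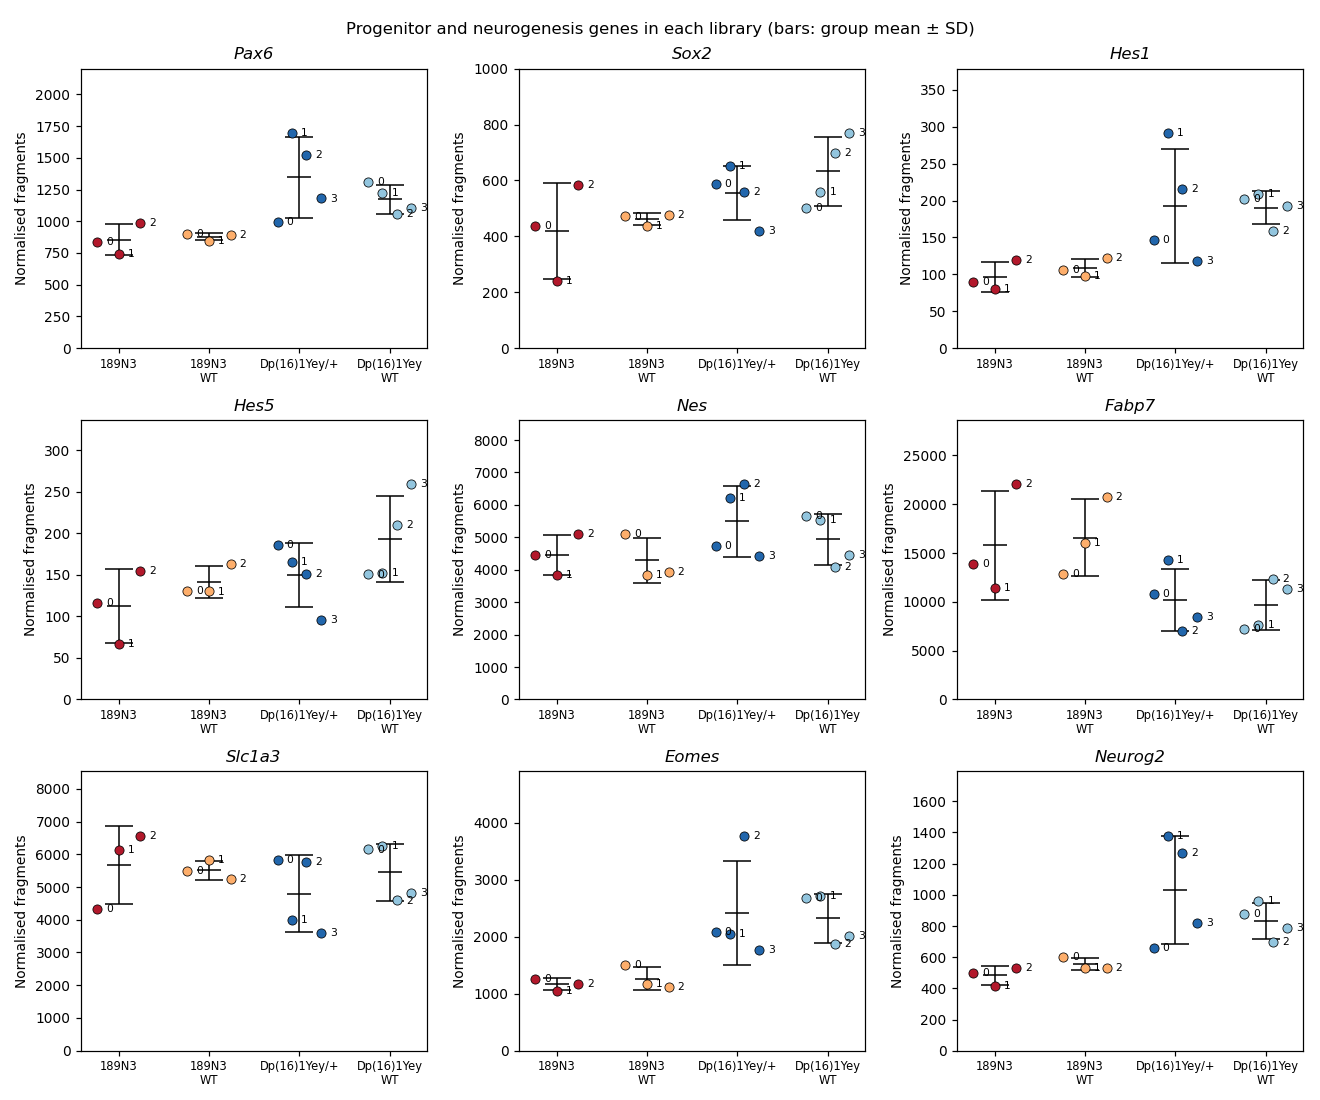
Normalised fragments of each gene in every library by group, with axes from 0; points are libraries labelled with their replicate number, and bars give the group mean ± SD. The transgenic and littermate libraries overlap in all 9 panels. Pax6, Sox2, Hes1, Eomes and Neurog2 stand higher in every Dp(16)1Yey littermate than in any 189N3 littermate, and Fabp7 stands lower. Of all loci, 25.5% did not overlap between these wild-type groups in either direction.

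The same few libraries held many of the highest and lowest values. In the 189N3 line, replicate 1 of 189N3 had the lowest value of the 6 libraries for 8 of the 9 genes, all but Slc1a3. Replicate 2 of 189N3 had the highest for 5, namely Pax6, Sox2, Nes, Fabp7 and Slc1a3. In the other line, the library labelled Dp(16)1Yey/+ replicate 1 was above all 4 littermates for 5 genes and replicate 2 for 5, and both lists held Pax6, Hes1, Nes and Neurog2. Replicate 3 was below all littermates for Sox2, Hes1, Hes5, Slc1a3 and Eomes. The nearly alike littermate pairs of that line were separated for all 9 genes. Pax6, Hes1, Nes, Slc1a3, Eomes and Neurog2 were higher in replicates 0 and 1, and Sox2, Hes5 and Fabp7 were higher in replicates 2 and 3. Of all loci tested, 75.9% were separated between these pairs in 1 direction or the other. For single libraries with the highest or lowest value, or outside the littermate range, the share of all loci was not computed. The counts above may therefore hold for many other loci.

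Other markers moved with these libraries. The summed level of 9 striatal markers was 2660 and 2561 normalised fragments in littermate replicates 0 and 1 of the Dp(16)1Yey line, and 4851 and 5076 in replicates 2 and 3. Summed ventral progenitor and interneuron markers (8 genes) followed, at 2390.2 and 2249 against 4639 and 4804. Other lists separated these pairs too. Neuron markers stood at 108961 and 108633 against 150721 and 152384. In the other direction, Cajal-Retzius markers stood at 24552 and 24189.5 against 13473 and 14831, and choroid plexus markers at 2044 and 1977 against 217 and 513. The summed level of 16 cell cycle genes was highest in the library labelled Dp(16)1Yey/+ replicate 1 and in replicate 2, at 85095 and 53966, against 35672 and 45022 in replicates 0 and 3 and 36998 to 46113 in littermates. In the library labelled replicate 1 the 7 erythroid markers summed to 48742, against 4588 to 17219 in littermates, and the 5 connective tissue markers to 2908, against 459.8 to 1138. The part of these cells and libraries in the values of the 9 genes was not tested.

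The ratio of Eomes to Fabp7, in normalised fragments, showed the same libraries. It was 0.370 and 0.353 in littermate replicates 0 and 1 of the Dp(16)1Yey line, and 0.152 and 0.178 in replicates 2 and 3. For Dp(16)1Yey/+ it was 0.193, 0.143, 0.534 and 0.208, the highest and the lowest of that line both being transgenic. In the 189N3 line all 6 libraries lay between 0.0532 and 0.116.

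**Figure D4:**
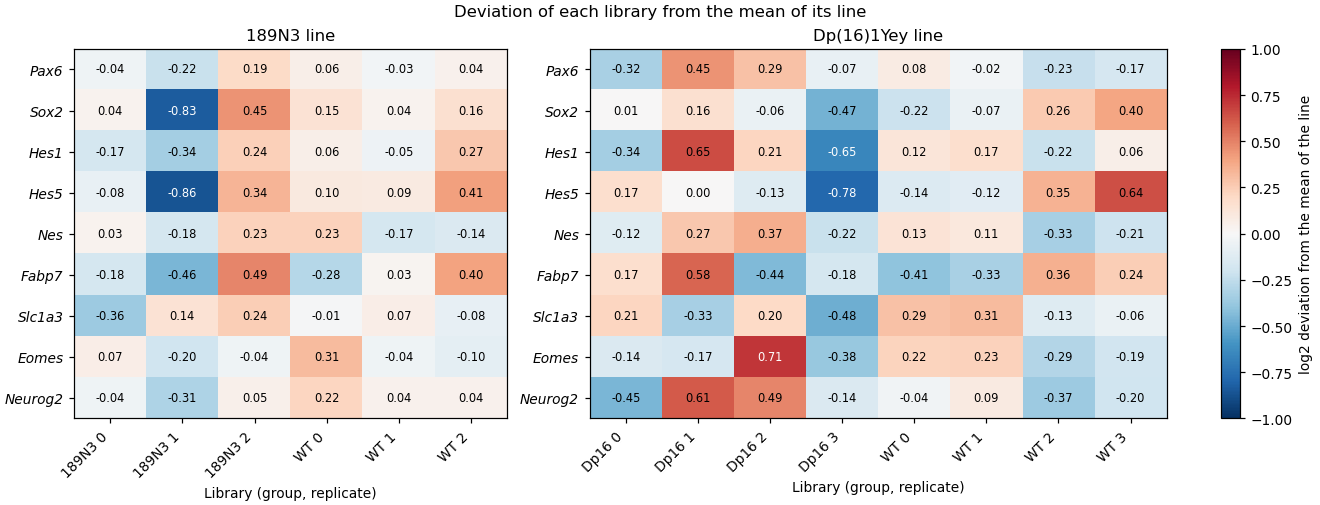
Deviation of each library from the mean of its line on the log2 scale, by gene (rows) and library (columns), for the 189N3 line and the Dp(16)1Yey line. 189N3 replicate 1 is lowest in Sox2 and Hes5 (-0.83 and -0.86), Dp(16)1Yey/+ replicate 2 is highest in Eomes (0.71), and the littermate pairs 0 with 1 and 2 with 3 show matching columns.

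Named genes outside the 9 whose pattern was most alike were sought over the 14 libraries, after the mean of each group was subtracted, among 11230 genes with a mean of at least 100. For the mean of the 7 radial glia genes they were Unc119b (Pearson r = 0.98, Spearman rho = 0.96), Top1 (0.97 and 0.88), Dcaf8 (0.97 and 0.88), Utp3 (0.97 and 0.85) and Anp32a (0.95 and 0.75). Without 189N3 replicate 2 and Dp(16)1Yey/+ replicate 3, the libraries farthest from the median, r was 0.91 to 0.96. For the mean of Eomes and Neurog2 they were Masp1 (r = 0.93, rho = 0.93), Nxn (0.93 and 0.93), Zfp113 (0.93 and 0.90), Nfatc4 (0.92 and 0.93) and Prr11 (0.92 and 0.93). There r was 0.87 to 0.95 without Dp(16)1Yey/+ replicates 0 and 2. These genes were picked as the highest of many and share libraries and size factors with the profiles, so the coefficients are descriptions.

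Whether the genotype effect was unlike in the 2 models was tested with an interaction term over all 14 libraries. None of the 9 genes passed it: 0 of 9 had an adjusted and 0 of 9 an unadjusted p under 0.05, beside 0% and 2.66% of 36045 loci. The largest estimate was that of Neurog2, whose Dp(16)1Yey/+ estimate lay 0.46 ± 0.33 above its 189N3 estimate (SE; limma adjusted p = 0.922; 95% interval -0.24 to 1.15). It was 0.29 without the library labelled replicate 1, the lowest of the values with 1 library left out, which reached 0.65. For Hes5, which had the lowest estimate in each model, the 2 differed by 0.03 ± 0.41, with an interval from -0.85 to 0.91, too wide to call them alike.

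The 2 wild-type groups, which share their genotype, were also set against each other. This comparison was added after the values were seen. Line, litter and embryonic age cannot be told apart in it, and it uses the same wild-type libraries as the comparisons above. Hes1 was 108 ± 12.5 normalised fragments (SD, n = 3) in the 189N3 littermates and 191 ± 22.3 (SD, n = 4) in the Dp(16)1Yey littermates, a log2 difference of 0.81 ± 0.16 (SE; limma adjusted p = 0.0383). Eomes was 1263 ± 203 and 2321 ± 435, a log2 difference of 0.87 ± 0.17 (limma adjusted p = 0.0383). These were the 2 genes of 9 past the adjusted threshold, beside 3.75% of 36047 loci. An unadjusted p under 0.05 was found for 6 of 9, beside 26.0% of loci.

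Neurog2 was 555 ± 39.7 and 831 ± 114 in the 189N3 and Dp(16)1Yey littermates, a log2 difference of 0.58 ± 0.14 (SE; limma adjusted p = 0.0533). Pax6 was 879 ± 27.3 and 1173 ± 116, a log2 difference of 0.41 ± 0.12 (limma adjusted p = 0.0767). Fabp7 went the other way, at 16553 ± 3952 and 9640.2 ± 2563, a log2 difference of -0.79 ± 0.22 (limma adjusted p = 0.0696). For Pax6, Sox2, Hes1, Fabp7, Eomes and Neurog2 the libraries of the 2 groups did not overlap, as for 25.5% of all loci, and the exact permutation p of each was 0.0571, the smallest that 4 against 3 allows. Hes5, Nes and Slc1a3 overlapped. With any 1 of the 7 libraries left out, 0 of 9 genes passed the adjusted threshold, with Hes1 between 0.73 and 0.89 and Eomes between 0.79 and 1.00 on the log2 scale. With the nearly alike pairs averaged 0 of 9 passed as well (Hes1 0.81, Eomes 0.87). Connective tissue and erythroid markers also differed between these groups: the summed connective tissue level was 1953 to 5590.4 in the 189N3 littermates and 459.8 to 1138 in the Dp(16)1Yey littermates, and the summed erythroid level 33979 to 54444 against 4588 to 17219. Their part in the difference was not tested.

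Of the 9 genes, 4 had several assembled isoforms, 22 in all, whose values are estimated shares of the locus. Of the 16 isoforms tested in 189N3 and 15 in Dp(16)1Yey/+, 0 had an adjusted or an unadjusted p under 0.05 (limma). Over all isoforms 0.0366% passed the adjusted and 2.56% the unadjusted threshold in 189N3, and 0.0214% and 3.48% in Dp(16)1Yey/+. Pax6 was split over 3 main isoforms, which took 34.0%, 33.4% and 28.8% of its normalised fragments over all libraries. The most abundant isoform of Eomes took 82.6%, that of Nes 71.6% and that of Slc1a3 71.2%. The first Pax6 isoform held 32.8 ± 5.82% in 189N3 and 42.9 ± 5.94% in their littermates (SD, n = 3), and 29.1 ± 3.87% against 35.1 ± 5.91% in the Dp(16)1Yey line (SD, n = 4). In the same order the second held 41.6 ± 10.2% and 27.5 ± 5.56%, and 33.0 ± 5.57% against 32.7 ± 3.27%. The third held 16.9 ± 4.55% and 24.5 ± 4.51%, and 35.0 ± 1.92% against 30.1 ± 2.50%. None of these differences passed the test on its level.

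Lists of related genes gave the setting of these values. Of 18 other radial glia genes, 7 were higher and 11 lower in 189N3 (median log2 difference -0.09), and 8 were higher and 10 lower in Dp(16)1Yey/+ (median -0.08, or -0.05 without the library labelled replicate 1). Of 24 other Notch pathway genes (ligands, receptors, processing enzymes and targets), 18 were higher in 189N3 with a median of 0.10, whereas 20 were lower in Dp(16)1Yey/+ with a median of -0.21. In both lists and both models 0 genes had an adjusted or unadjusted p under 0.05. The 9 other proneural and intermediate progenitor genes had medians of -0.20 in 189N3 and -0.08 in Dp(16)1Yey/+, where the median was -0.18, with 7 of 9 lower, without the library labelled replicate 1. Among them Gadd45g, a stress-inducible growth arrest gene expressed in newborn neuronal precursors, was 28.4 ± 2.51 in 189N3 and 50.0 ± 12.6 in littermates (log2 difference -0.77 ± 0.30; limma unadjusted p = 0.0229, adjusted p = 1.00). Neurod1, the proneural factor downstream of Eomes, was read from its isoform, which takes 98.5% of a merged locus. Its levels were 1429 ± 275 and 1364 ± 404 in 189N3 and littermates, and 1573 ± 1162 and 1886 ± 688 in Dp(16)1Yey/+ and littermates.

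The 16 cell cycle genes were mostly lower in 189N3 (13 of 16, median -0.15) and mostly higher in Dp(16)1Yey/+ (15 of 16, median 0.30), none with an unadjusted p under 0.05. That count rested on the library labelled replicate 1, without which 9 were higher and 7 lower with a median of 0.00. All 13 neuron markers were higher in 189N3 (median 0.26). Their sums were 170216, 148806 and 221314 in 189N3 replicates 0 to 2, against 142773, 162358 and 146456 in littermates. Replicate 1 thus lay within the littermate range. Among Dp(16)1Yey/+ libraries 7 neuron markers were higher and 6 lower (median 0.05, or 0.00 without the library labelled replicate 1). Neurod6, a factor of pyramidal neurons, was 15085 ± 3840.1 there and 9772 ± 929 in littermates, a log2 difference of 0.60 ± 0.19 (limma unadjusted p = 0.00841, adjusted p = 0.909).

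Glial and other cell types were followed in the same way. The 5 oligodendrocyte precursor markers were all higher in 189N3 (median 0.55) and all lower in Dp(16)1Yey/+ (median -0.53). Their sums were 1080, 1217 and 2221 normalised fragments in 189N3 replicates 0 to 2, against 1043, 1381 and 929 in littermates. Only replicate 2 thus lay above the littermate range. In Dp(16)1Yey/+ replicates 0 to 3 the sums were 1166, 471, 380 and 533, against 611, 583, 1079 and 1148. Replicate 0 there lay above all littermates. Of the 5 markers, Olig2 in 189N3 had an unadjusted p under 0.05, at 125 ± 42.8 against 71.5 ± 12.5. The 7 astrocyte markers were higher for 5 in 189N3 (median 0.17) and lower for 7 in Dp(16)1Yey/+ (median -0.36). Erythroid markers were lower in 189N3 for 6 of 6 (median -1.32), each with an unadjusted p under 0.05 and none with an adjusted one. For Dp(16)1Yey/+ they were higher for 6 of 6 (median 1.23), or 0.68 without the library labelled replicate 1. In 189N3 the anion exchanger gene Slc4a1 was 137 ± 32.1, against 372 ± 92.7 in littermates (log2 difference -1.43; limma adjusted p = 0.301), and in Dp(16)1Yey/+ 287 ± 274 against 89.2 ± 67.1 (1.43; limma adjusted p = 0.909). The beta globin genes Hbb-bt (-1.53) and Hbb-bs (-1.35) were also among the 6 in 189N3, but they are near-identical copies whose reads may be split between them. Connective tissue markers were lower for 5 of 5 in 189N3 (median -1.10) and higher for 4 of 5 in Dp(16)1Yey/+ (median 0.58, or 0.22 without that library). The collagen genes Col1a1, Col1a2 and Col3a1 had unadjusted p under 0.05 in 189N3 (log2 differences -1.54, -1.44 and -1.10), as did Col1a1 and Col1a2 in Dp(16)1Yey/+ (1.98 and 1.39). Col1a1 ranged from 20.8 to 688 between Dp(16)1Yey/+ libraries and from 20.6 to 134 in littermates. Summed connective tissue markers were 2908 in the library labelled replicate 1, and 457, 1330 and 1111 in replicates 0, 2 and 3. The differences of these collagen genes are not given without the library labelled replicate 1. The 9 striatal markers had medians of 0.33 and -0.25, with the dopamine receptor gene Drd1 at 260.2 ± 69.0 in 189N3 and 130.2 ± 42.4 in littermates (limma adjusted p = 1.00). The 7 endothelial and pericyte markers had medians of 0.04 and -0.45, with the VEGF receptor gene Flt1 higher by 0.60 on the log2 scale in 189N3 at an unadjusted p under 0.05. Medians in 189N3 and Dp(16)1Yey/+ were 0.10 and -0.30 for hippocampal, 0.11 and -0.10 for ventral progenitor and interneuron, -0.21 and -0.37 for Cajal-Retzius and 0.03 and -0.23 for choroid plexus markers. Without the library labelled replicate 1 the Dp(16)1Yey/+ median was -0.41 for striatal, -0.17 for hippocampal and -0.45 for choroid plexus markers. Of 6 microglia markers, 3 were higher in 189N3 and 1 in Dp(16)1Yey/+ (medians -0.0018 and -0.13, the latter -0.23 without the library labelled replicate 1). Over all loci tested the medians were -0.04 and 0.03, and no gene of any list had an adjusted p under 0.05 in either model. The part of these cells in the 9 genes' differences was not tested.

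**Figure D5:**
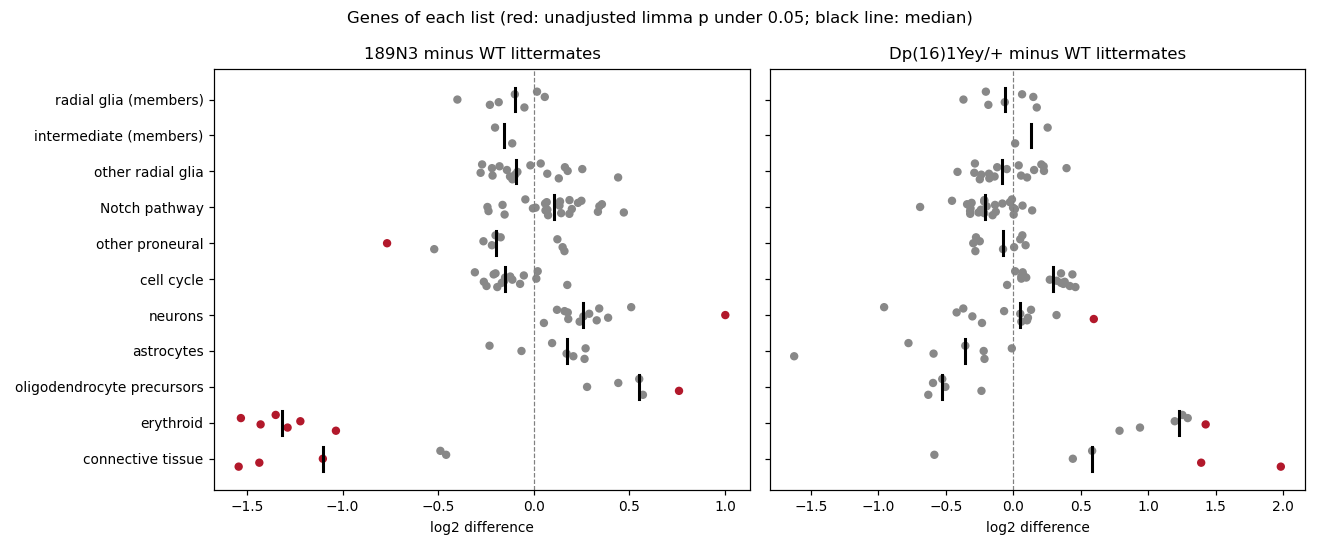
Log2 difference of each gene of a list against wild-type littermates in 189N3 (left) and Dp(16)1Yey/+ (right); each point is 1 gene, red where the unadjusted limma p is under 0.05, and the black line is the median of the list. Medians of the radial glia, intermediate and other proneural lists lie between -0.20 and 0.13 over both panels, with Gadd45g at -0.77 in 189N3. The medians of erythroid and connective tissue markers lie farthest from 0 among the lists shown. These markers are below 0 in 189N3 and mostly above 0 in Dp(16)1Yey/+. Without the library labelled replicate 1 the connective tissue median in Dp(16)1Yey/+ is 0.22.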

How the data were processed

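Hippocampal RNA was sequenced as paired reads in 14 libraries after a stranded total RNA preparation, while the labels also name polyA RNA. Per the methods, the authors aligned reads to mm10 with TopHat and Bowtie and quantified a merged assembly with the Cufflinks suite. Tool versions, and whether counting used strand, are not given in the sources used here. The deposited gene table holds signal values, fragments per locus divided by a size factor, and 1 fragment is worth 0.816 to 1.21 units. The deposited isoform table holds signal values on the same scale. Loci were named from the deposited map by matching isoform sums in all 14 libraries. Groups and replicate numbers came from the labels.

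Loci averaging 10 or more were kept, and log2(value + 1) was fitted with limma 3.58.1 (R 4.3.3) with a trend and no covariate. Benjamini-Hochberg adjustment ran over all loci. Depth was 20809135 to 29098454 fragments. Exact two-sided permutation tests used SciPy 1.17.1. Fragments were recovered from the step of each library for edgeR 4.0.16 and DESeq2 1.42.0. Of nonzero values 100% were whole within 0.05 or, for the largest loci, within a wider margin scaled to the value. A separate check of the values did not accept the recovery in 4 libraries of the Dp(16)1Yey line whose step lies close to 1 (0.989 to 1.01). Exon lengths came from GENCODE vM21.

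The members and lists were chosen with earlier results of these data known. Genes named by rule were the 9 genes, up to 3 genes per list and model with an unadjusted p under 0.05, and the 5 genes most alike each profile. A gene that the rule named is not reported here. Whether each library is 1 embryo is not stated, so p-values measure the spread between libraries. The test was checked on simulated data with independent libraries and the same spread for every gene. Nearly alike pairs and libraries that stand apart were not simulated, so the check does not cover them.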

Additional observations from a re-analysis of the deposited data

Results flagged for a closer look

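Of 18 groups of 4 libraries examined (9 genes in 2 groups), 1 held a library far from the others: Eomes in Dp(16)1Yey/+ replicate 2, at 3771 normalised fragments, with the gap to the next library 0.841 of the range of the group. By chance about 1 group in 20 would be expected to do so if the 4 libraries were independent. The littermate libraries fall into nearly alike pairs, so that rate does not hold for their groups. In Dp(16)1Yey/+ replicate 2, Neurog2 and Nes were also above all littermates and Fabp7 was below all.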

How the results depend on the processing

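In 189N3, Dp(16)1Yey/+ and their interaction, 0 of 9 genes passed the adjusted threshold under every alternative run. The smallest adjusted p among alternatives was 0.836, 0.398 and 0.516. An unadjusted p under 0.05 appeared only for Hes5 without 189N3 replicate 2, at -0.67, and for Neurog2 in the interaction without Dp(16)1Yey/+ replicate 0. Signs of small differences turned. With quantile normalization Nes was -0.013 and Slc1a3 -0.054 in 189N3, Eomes -0.0080 and Fabp7 -0.025 in Dp(16)1Yey/+, and Slc1a3 0.096 between wild types. With median-ratio size factors Eomes was -0.015 in Dp(16)1Yey/+, and Sox2 -0.015 and Hes5 -0.030 in the interaction, where edgeR gave -0.075 and -0.064.

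With 1 library left out, 189N3 differences ranged from -0.16 to 0.049 for Pax6, -0.51 to 0.13 for Sox2, -0.043 to 0.19 for Nes, -0.67 to -0.069 for Hes5, -0.37 to 0.11 for Fabp7, -0.10 to 0.20 for Slc1a3 and -0.19 to 0.016 for Eomes. In Dp(16)1Yey/+ they ranged from -0.29 to 0.14 for Hes1, -0.12 to 0.22 for Fabp7 and -0.22 to 0.14 for Eomes. In the interaction they ranged from -0.31 to 0.33 for Sox2, -0.11 to 0.33 for Hes1, -0.30 to 0.30 for Hes5, -0.039 to 0.19 for Nes, -0.042 to 0.43 for Fabp7 -0.11 to 0.25 for Eomes and 0.29 to 0.65 for Neurog2. Slc1a3 ranged from -0.10 to 0.047 between wild types.

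Between wild types, 2 of 9 genes passed. This became 0 with no trend, in 1 fit of all 4 groups and with nearly alike libraries averaged, 3 with a mean of at least 100 (Neurog2 too), 4 with DESeq2, and 0 to 0 with 1 library left out. Those alternatives were chosen after the data were seen. The cause was not tested.

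Replicate numbers did not pair the samples: the correlation of deviations of same-numbered libraries lay between -0.64 and 0.11. Some libraries of unlike number were more alike. Dp(16)1Yey/+ replicate 2 reached 0.66 and 0.63 with littermate replicates 0 and 1. Replicate 0 of Dp(16)1Yey/+ reached 0.46 and 0.56 with littermate replicates 2 and 3. Such likeness across the groups was not included in any fit. With the replicate number as a block, 0 of 9 genes passed in 189N3, in Dp(16)1Yey/+ and in the interaction. Over all loci the block called 72 in 189N3, where DESeq2 called 15 and limma 0.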
